A study of Mus musculus with 9 samples.

Results

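The suppressors of cytokine signalling (SOCS) form a family of 8 genes in the mouse, Cish and Socs1 to Socs7, and they were followed here in liver RNA through the probe sets that carry their symbols. All 8 were found among the 19494 genes that the array names, each on 1 of its 22142 probe sets, so that no choice between probe sets was needed. Of these, 7 passed the filter on low values (log2 levels above 5 on 2 or more arrays of a single condition), and Socs6 did not. The livers came from 6-week-old wild type C57BL/6 mice, females according to the methods, taken 15 days after the intravenous injection that the treated groups received. Mice fell into 3 groups of 3, with 1 array per mouse. The AAV combination group received AAV-IFNα together with AAV-L37pA, the AAV-IFNα group received AAV-IFNα alone, and the Mock group was not injected. Both vectors are adeno-associated viruses of serotype 8 with the elongation factor 1α promoter, one encoding mouse IFNα1 and the other L37pA, a peptide that mimics apolipoprotein A-I. The AAV combination mice received more vector in total, no array came from a mouse with AAV-L37pA or an empty vector alone, and Mock mice received none. The effects of the L37pA peptide and of the additional vector therefore cannot be told apart, and neither can those of IFNα and of the vector that delivers it.

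SOCS proteins are brakes on cytokine receptors. A cytokine activates receptor-bound JAK kinases, these phosphorylate STAT factors, and the STAT factors switch on SOCS genes among their targets. The SOCS proteins then bind phosphorylated receptors or kinases through an SH2 domain, while their SOCS box recruits elongin B, elongin C and cullin 5, a ubiquitin ligase that marks bound proteins for degradation. Socs1 and Socs3 can also block the kinase directly. Socs1 is the classical brake on interferon signalling, Socs3 restrains the interleukin 6 receptor subunit gp130, and Cish and Socs2 are targets of STAT5 that restrain growth hormone signalling in liver. The less studied Socs4 and Socs5 have been linked to the epidermal growth factor receptor, and Socs6 and Socs7 to insulin and KIT signalling.

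The array values of the 9 mice were closely matched in overall level, with medians between 5.78 and 5.83 and between 13888 and 14273 probe sets above 5, and no array was a copy of another. Ifna1, the gene of the interferon that both treated groups were given, read 7.03 ± 0.31 in the AAV combination, 6.57 ± 0.18 in the AAV-IFNα group and 5.52 ± 0.23 in Mock (log2, mean ± SD, n = 3 each). The 7 hepatocyte markers were above 5, with summed levels of 15.4 in AAV combination livers, 15.3 in AAV-IFNα livers and 15.4 to 15.5 in Mock livers. Levels of different genes are not ranked against each other here, because a probe set has its own binding strength.

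The promoters of Socs1, Cish and Socs3 are shown because these genes differ in the cytokines known to induce them. Each window runs from 250 bases before a RefSeq transcription start to 50 bases from it, on assembly GRCm38.p6. For Socs1 and Cish this start is the upstream end of the gene interval. The Socs3 window lies wholly inside the Socs3 interval, so its start is an internal one. Capitals mark matches to the interferon repeat GAAANNGAA in Socs1, and to the gamma activated site TTCNNNGAA, the form that STAT dimers bind, in Cish and Socs3. Both were searched on both strands. Socs1 lies at chr16:10783808-10785536 with its promoter window at chr16:10785487-10785786 on the minus strand, Cish at chr9:107296659-107302784 with its window at chr9:107296409-107296708 on the plus strand, and Socs3 at chr11:117966079-117970336 with its window at chr11:117969317-117969616 on the minus strand.
Socs1: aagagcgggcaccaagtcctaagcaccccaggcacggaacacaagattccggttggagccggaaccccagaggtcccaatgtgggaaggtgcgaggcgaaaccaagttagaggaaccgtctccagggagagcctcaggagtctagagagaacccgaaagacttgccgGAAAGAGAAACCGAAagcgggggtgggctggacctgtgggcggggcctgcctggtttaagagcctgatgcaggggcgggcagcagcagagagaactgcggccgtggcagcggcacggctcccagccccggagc
Cish: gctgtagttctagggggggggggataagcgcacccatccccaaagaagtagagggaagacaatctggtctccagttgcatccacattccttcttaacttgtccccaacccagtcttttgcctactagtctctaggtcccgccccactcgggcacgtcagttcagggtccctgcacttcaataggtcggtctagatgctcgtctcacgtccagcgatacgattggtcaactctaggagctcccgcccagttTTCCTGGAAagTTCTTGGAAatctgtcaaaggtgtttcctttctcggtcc
Socs3: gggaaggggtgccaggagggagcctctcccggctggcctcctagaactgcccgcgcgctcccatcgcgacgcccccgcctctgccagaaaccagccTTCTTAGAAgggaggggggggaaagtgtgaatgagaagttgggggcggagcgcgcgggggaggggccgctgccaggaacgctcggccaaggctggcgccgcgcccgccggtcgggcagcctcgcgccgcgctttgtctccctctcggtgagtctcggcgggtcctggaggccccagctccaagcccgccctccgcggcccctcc

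The Socs1 window holds 2 interferon repeats that overlap by 3 bases and begin 83 and 77 bases upstream of the start. The Cish window holds 2 gamma activated sites, at transcribed bases 1 and 12, and the Socs3 window holds 1, beginning 154 bases upstream. Of 32851 mouse promoter windows of 300 bases, 8.56% hold an interferon repeat and 8.3% a gamma activated site. The Socs4 window (chr14:47276670-47276969, plus strand) holds neither. A match describes the letters and is not evidence of binding. Socs2, Socs5, Socs6 and Socs7 were not matched to a promoter.

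The family split into a pair of genes that changed after AAV-IFNα and a majority that did not pass the test. Against Mock, Socs1 rose and Socs2 fell in AAV-IFNα livers, 2 of the 7 tested members, where 16.3% of all tested probe sets were called (limma, Benjamini-Hochberg adjusted p under 0.05 over 14715 probe sets). In the AAV combination against AAV-IFNα, Socs1 was lower and Socs2 higher, again 2 of 7, where 2.60% of probe sets were called. Between the AAV combination and Mock, 0 of 7 members were called, against 5.21% of probe sets, and 1 of them, Cish, had an unadjusted p under 0.05. By the B-statistic above 0 that the methods used, 2 members passed in AAV-IFNα against Mock (6.03% of probe sets), 1 in the AAV combination against AAV-IFNα (1.78%) and 0 in the AAV combination against Mock (2.40%). The median difference of the tested members was -0.05 in AAV-IFNα against Mock (-0.02 over all tested probe sets), 0.07 in the AAV combination against AAV-IFNα (0.01) and -0.06 in the AAV combination against Mock (0.00). Socs1 passed the filter only through the AAV-IFNα group, in which it was high, so the counts over tested members are descriptions. The comparisons with Mock share their Mock arrays.

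**Figure D1:**
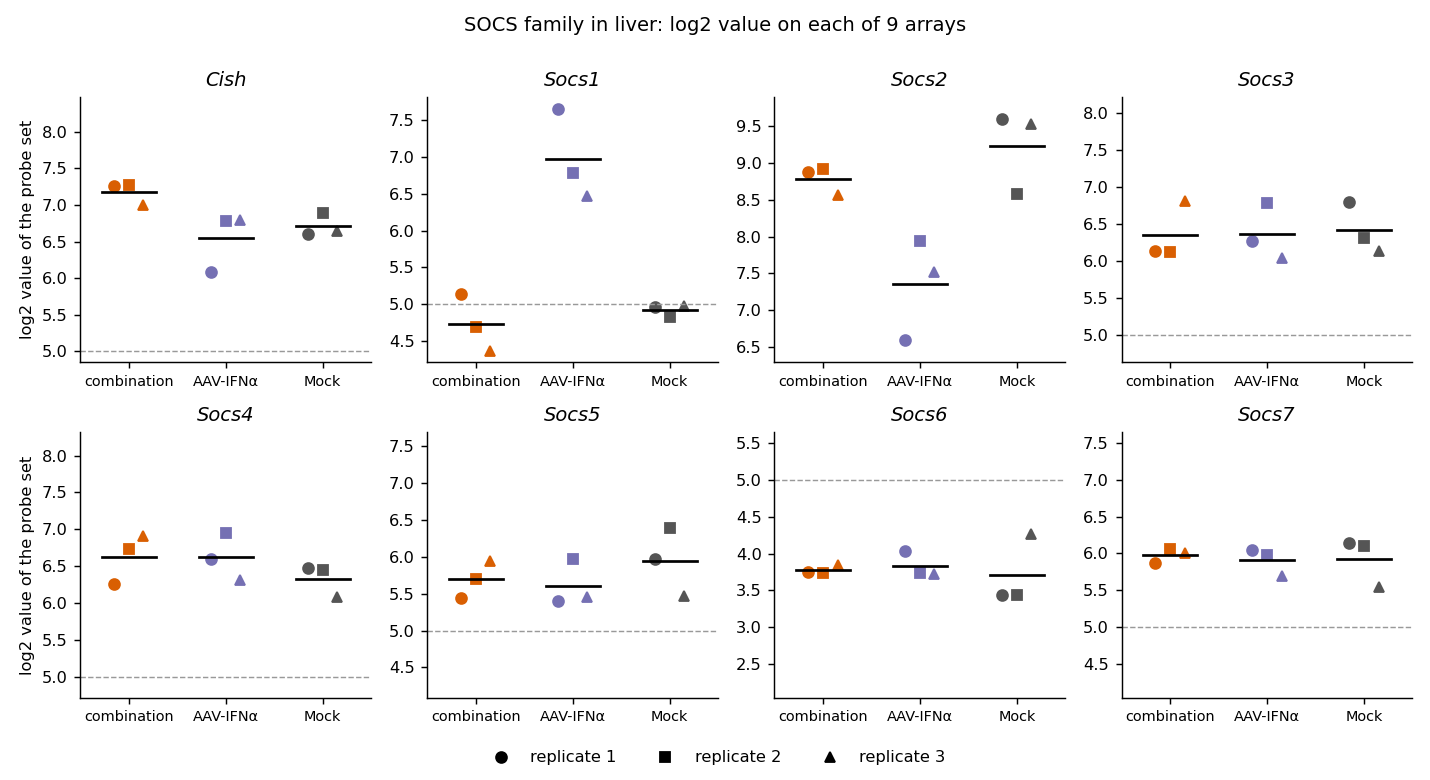
Log2 level of each SOCS gene on each of the 9 arrays (1 panel per gene, 3 mice per group, a symbol per replicate number), with the group mean as a black bar and the filter value of 5 as a dashed line. The AAV-IFNα arrays lie above all other arrays for Socs1 and below them for Socs2, and Socs6 stays under the dashed line on 9 arrays.

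Socs1, the inhibitor that binds JAK kinases at interferon receptors, rose in AAV-IFNα livers and was lower in AAV combination livers, whose arrays overlapped Mock. Its log2 level was 5.14, 4.69 and 4.38 in the AAV combination mice, 7.65, 6.77 and 6.47 in the AAV-IFNα mice and 4.96, 4.83 and 4.98 in the Mock mice. All AAV-IFNα arrays were above the other arrays, and the AAV combination arrays lay on both sides of Mock. Only 1 of 3 AAV combination arrays and 0 of 3 Mock arrays were above 5, so both groups lay mostly under the filter value. Fold sizes are therefore given with every value under 5 set to 5. Such a fold does not allow for the spread between mice, which the intervals of the measured differences describe.

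The means were 4.74 ± 0.39 in the AAV combination, 6.97 ± 0.61 in the AAV-IFNα group and 4.92 ± 0.08 in Mock (SD, n = 3 each). With values under 5 set to 5, Socs1 was 3.91-fold higher in AAV-IFNα livers than in Mock, where 11.2% of probe sets were called higher. As measured, the values differed by 2.04 on the log2 scale (SE 0.26, 95% interval 1.48 to 2.60), with a limma adjusted p of 0.00013, or 0.00011 over all probe sets without the filter. In the AAV combination it was, by the same measure, 3.78-fold lower than in AAV-IFNα livers, where 2.20% of probe sets were called lower. The measured difference was -2.23 (95% interval -2.79 to -1.67, limma adjusted p = 0.00071, or 0.00059 without the filter). Against Mock the AAV combination differed by -0.19 (95% interval -0.75 to 0.37, limma adjusted p = 0.71), with both groups mostly under the filter value. Both calls held without any single array, with differences between 1.70 and 2.29 for AAV-IFNα against Mock and between -2.48 and -1.89 for the AAV combination against AAV-IFNα. As these are whole livers, more RNA per cell and more cells of a type that expresses a gene cannot be told apart.

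Socs2, the growth hormone feedback inhibitor whose loss makes mice grow large, moved the opposite way. Its log2 level was 8.88, 8.91 and 8.57 in the AAV combination mice, 6.60, 7.94 and 7.52 in the AAV-IFNα mice and 9.59, 8.58 and 9.52 in the Mock mice. The AAV-IFNα arrays were below the other arrays, with replicate 1 lowest. The AAV combination arrays overlapped Mock, whose replicate 2 lay level with the lowest AAV combination array.

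Means of 8.79 ± 0.19 in the AAV combination, 7.35 ± 0.69 in the AAV-IFNα group and 9.23 ± 0.57 in Mock (SD, n = 3 each) gave a fall of 1.88 after AAV-IFNα relative to Mock (SE 0.31, 95% interval of the difference -2.55 to -1.20, limma adjusted p = 0.0011). That is a 3.67-fold lower level and the 16th lowest difference of 14715, where 5.06% of probe sets were called lower, and the call held without any single array (-2.20 to -1.50). The AAV combination was higher than AAV-IFNα by 1.43, or 2.70-fold (95% interval 0.76 to 2.11, limma adjusted p = 0.029), the 14th highest difference of 14715, where 0.394% of probe sets were called higher. This second call was less firm. It was lost without AAV-IFNα replicate 1 (1.05, adjusted p = 0.11) and without AAV combination replicate 1, 2 or 3 (1.39, 1.37 and 1.54, adjusted p = 0.12, 0.12 and 0.056), and its B-statistic was -0.01. Against Mock, the AAV combination differed by -0.45 (95% interval -1.12 to 0.23, limma adjusted p = 0.42).

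Cish, a STAT5 target like Socs2, was not called in any comparison. Log2 levels were 7.26, 7.28 and 6.99 in the AAV combination mice, 6.08, 6.77 and 6.80 in the AAV-IFNα mice and 6.60, 6.88 and 6.65 in the Mock mice. The AAV combination arrays were the highest of the 9, above AAV-IFNα by a gap of 0.19 and above Mock by a gap of 0.11, and the AAV-IFNα and Mock arrays overlapped. The AAV combination mean exceeded that of AAV-IFNα by 0.63 (95% interval 0.22 to 1.03, limma adjusted p = 0.12) and that of Mock by 0.47 (95% interval 0.07 to 0.87, limma adjusted p = 0.16), and neither passed the adjusted threshold. AAV-IFNα differed from Mock by -0.16 (95% interval -0.56 to 0.24, limma adjusted p = 0.58). Cish with Socs1 and Socs2 made 3 members whose AAV combination and AAV-IFNα arrays did not overlap, against 17.5% of probe sets. Against Mock it was the 1 such member of the AAV combination, against 27.9%, and in AAV-IFNα against Mock there were 2, against 36.0%. An exact two-sided permutation test of 3 against 3 cannot go below p = 0.1, which each of these cases reached.

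Socs3, the feedback inhibitor of gp130 signalling, showed no difference between group means beyond the spread between mice. Its log2 level was 6.13, 6.12 and 6.80 in the AAV combination mice, 6.27, 6.79 and 6.04 in the AAV-IFNα mice and 6.80, 6.31 and 6.14 in the Mock mice. Each group held 1 array near 6.80 and 2 lower ones. The differences were -0.06 for the AAV combination against Mock (95% interval -0.57 to 0.45), -0.05 for AAV-IFNα against Mock (-0.56 to 0.46) and -0.02 for the AAV combination against AAV-IFNα (-0.52 to 0.49), with limma adjusted p between 0.90 and 0.99. A change of up to about 0.5 on the log2 scale in either direction is thus within the intervals.

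Socs4, Socs5 and Socs7 were also uncalled in every comparison. Socs4 ranged over 6.25 to 6.90 in the AAV combination, 6.31 to 6.96 in the AAV-IFNα group and 6.08 to 6.48 in Mock, and its largest difference was 0.30 for the AAV combination against Mock (95% interval -0.13 to 0.73, limma adjusted p = 0.40). Socs5 ranged over 5.44 to 5.94 in the AAV combination, 5.40 to 5.98 in the AAV-IFNα group and 5.47 to 6.38 in Mock, with its largest difference, -0.34, for AAV-IFNα against Mock (95% interval -0.82 to 0.15, limma adjusted p = 0.32). Socs7 varied least of the 8 over the 9 arrays, by 0.60 in all, and its differences lay between -0.02 and 0.07. Socs6, a regulator with an extended N-terminal region like Socs7, read 3.73 to 3.85 in the AAV combination, 3.73 to 4.04 in the AAV-IFNα group and 3.43 to 4.26 in Mock. With every array under 5 it was not tested, and whether the liver expressed it could not be read from this probe set.

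**Figure D2:**
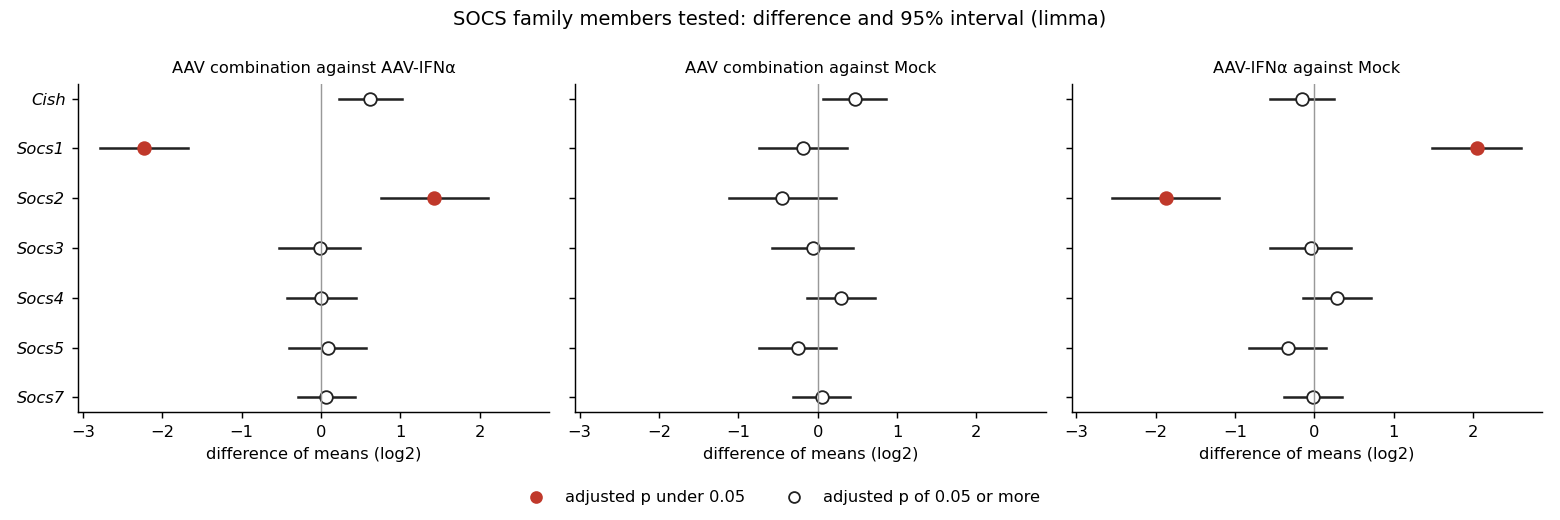
Difference in log2 level for each tested SOCS gene in the 3 comparisons, with its 95% interval from the limma fit, drawn in red where the adjusted p is under 0.05. Socs1 (2.04) and Socs2 (-1.88) stand on opposite sides of 0 in AAV-IFNα against Mock and change sides in the AAV combination against AAV-IFNα (-2.23 and 1.43).

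The AAV-IFNα mouse with the most extreme SOCS levels also had the highest sums of several immune cell marker lists. This mouse, replicate 1, had the highest Socs1 level and the lowest Socs2 and Cish levels of the 9 arrays, as well as the highest summed level of the T cell, NK cell, monocyte, Kupffer cell and dendritic cell markers. AAV-IFNα replicate 2 was above replicate 3 for Socs1 (6.77 and 6.47) and the monocyte sum (11.10 and 10.41). It was below replicate 3 for the T cell (8.05 and 8.23), NK cell (9.41 and 9.61), Kupffer cell (11.54 and 11.64) and dendritic cell sums (7.88 and 8.06). The T cell list (6 markers) summed to 7.64 to 7.81 in the AAV combination, 8.05 to 8.78 in the AAV-IFNα group and 7.61 to 7.83 in Mock, on the log2 scale of summed linear values. Of its 4 tested markers, Cd3g, Cd8a and Cd8b1 were higher in AAV-IFNα livers than in Mock (1.00, 1.08 and 1.28, limma adjusted p = 0.022, 0.012 and 0.0018) and Cd4 was not called (-0.05), while Cd3e and Cd3d were not tested (0.40 and 0.03). NK cell markers (7) summed to 8.25 to 8.41 in the AAV combination, 9.41 to 9.93 in the AAV-IFNα group and 7.99 to 8.24 in Mock. Like Socs1, both lists were highest in AAV-IFNα livers with no overlap with the other groups. Unlike Socs1, the NK cell sums of the AAV combination lay narrowly above Mock, with 2 markers called higher there (5.21% of all tested probe sets were called in either direction). Of 5 tested NK cell markers, 3 were called higher in AAV-IFNα livers than in Mock, against 11.2% of all tested probe sets. Nkg7 and Prf1 were not called there (0.51 and 0.14). Cd3g, Cd8b1 and Ncr1 averaged above 5 in AAV-IFNα livers and under 5 in the other groups. As with Socs1, these markers may have passed the filter through the AAV-IFNα group alone, so the counts are descriptions. In the AAV combination against AAV-IFNα, 4 tested NK cell markers, Nkg7 among them (-0.88, limma adjusted p = 0.032), and 1 T cell marker were called lower. There 2.20% of all tested probe sets were called lower.

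Among the other lists, monocyte and dendritic cell sums were also highest in AAV-IFNα livers without overlap, and the rest were not. The 6 monocyte markers summed to 9.83 to 10.3 in the AAV combination, 10.4 to 11.7 in the AAV-IFNα group and 8.69 to 8.96 in Mock, and the 6 Kupffer cell markers to 11.2 to 11.6 in the AAV combination, 11.5 to 11.7 in the AAV-IFNα group and 10.2 to 10.5 in Mock. Like the NK cell sums, both were thus above Mock in the AAV combination, where the Socs1 arrays overlapped Mock. Dendritic cell markers (6) summed to 7.41 to 7.74 in the AAV combination, 7.88 to 8.34 in the AAV-IFNα group and 7.54 to 7.57 in Mock. A sum rests mostly on its markers with the highest values. In AAV-IFNα against Mock, 4 of 5 tested monocyte, 3 of 6 Kupffer cell and 2 of 4 dendritic cell markers were called higher, against 11.2% of all tested probe sets. Ccr2 of the monocyte list and Itgax of the dendritic cell list averaged above 5 only in AAV-IFNα livers, so these counts too are descriptions. Not called in AAV-IFNα against Mock were Lyz2 (0.57), Clec4f (0.05), Vsig4 (0.50), Timd4 (0.35), Zbtb46 (0.04) and Siglech (-0.24). In the AAV combination against AAV-IFNα, 3 of 5 tested monocyte, 1 of 6 Kupffer cell and 1 of 4 dendritic cell markers were called lower, against 2.20% of all tested probe sets. Klrb1c and Eomes of the NK list, Chil3 of the monocyte list, Flt3 of the dendritic cell list, S100a8 of the neutrophil list and Ms4a1 and Cd79a of the B cell list stayed under 5 on every array. Stellate cell markers (5) summed to 11.05 to 11.19 in the AAV combination, 10.54 to 11.10 in the AAV-IFNα group and 10.95 to 11.24 in Mock, with Lrat and Reln lower in AAV-IFNα livers than in Mock (-0.87 and -0.79, limma adjusted p = 0.0077 and 0.0013) and Des under 5 on every array. Sinusoidal endothelial markers (5) overlapped between the groups, at 9.98 to 10.4 in the AAV combination, 10.1 to 10.2 in the AAV-IFNα group and 9.94 to 10.2 in Mock. Of these, 2 were higher and 1 lower in AAV-IFNα livers than in Mock, where 11.2% of all tested probe sets were called higher and 5.06% lower. The neutrophil (3) and B cell (3) sums also overlapped, with none of their markers called. The part of these cells in the SOCS differences was not tested. Of the 7 hepatocyte markers, 1 was lower in AAV-IFNα than in Mock livers (5.06% of all tested probe sets were called lower). In the AAV combination, 1 was higher than in AAV-IFNα livers (0.394% of all tested probe sets were called higher).

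The genes whose profile lay closest to Socs1 over the 9 arrays belonged to MHC class II antigen presentation. Likeness was measured as the root mean square difference between log2 values centred on each gene's own mean, among 13246 genes. H2-Aa was closest at 0.34, followed by H2-DMa at 0.35, Ciita at 0.36 and H2-Ab1 at 0.38, where Socs1 itself varied around its mean by 1.07. H2-Aa and H2-Ab1 encode the chains of a class II molecule, H2-DMa a subunit of the peptide loading factor and Ciita the transactivator of the class II genes. Ciita had means of 4.86 ± 0.11 in the AAV combination, 6.56 ± 0.19 in the AAV-IFNα group and 5.01 ± 0.06 in Mock. H2-Aa had 7.81 ± 0.52 in the AAV combination, 9.98 ± 0.84 in the AAV-IFNα group and 7.75 ± 0.20 in Mock (SD, n = 3 each). These genes were picked for their likeness, so their levels are given as a description.

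Closest to Socs2 were the major urinary protein genes Mup9 at 0.28, Mup5 at 0.29 and Mup2 at 0.32, and the sulfotransferase gene Sult3a2 at 0.33, where Socs2 itself varied by 0.91. Major urinary proteins are secreted by mouse liver and are known to depend on growth hormone. Mup2 averaged 12.9 ± 0.18 in the AAV combination, 11.8 ± 0.47 in the AAV-IFNα group and 13.2 ± 0.10 in Mock, and Mup9 averaged 12.5 ± 0.19 in the AAV combination, 11.5 ± 0.62 in the AAV-IFNα group and 12.9 ± 0.19 in Mock (SD, n = 3 each). The Mup genes are near-identical copies, so their probe sets may read each other's transcripts and count as fewer than 3 separate genes.

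**Figure D3:**
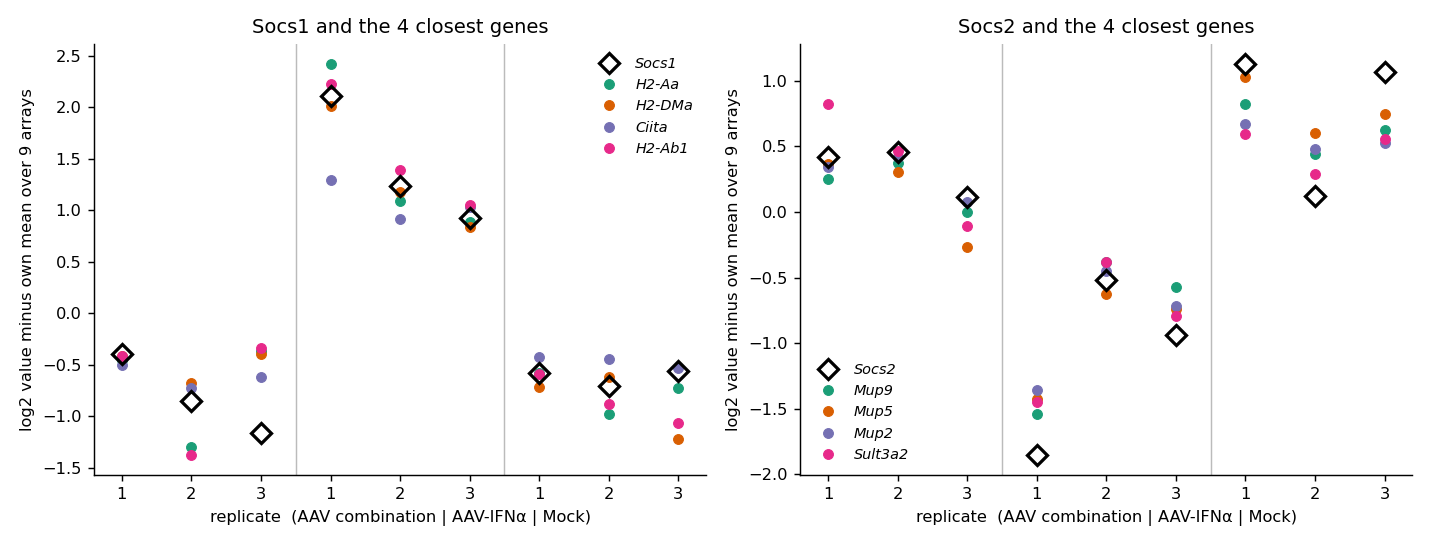
Log2 level minus the gene's own mean over 9 arrays for Socs1 (left) and Socs2 (right), drawn as open diamonds, and the 4 closest genes of each, drawn as filled circles, on the AAV combination, AAV-IFNα and Mock arrays. AAV-IFNα replicate 1 holds the highest value of Socs1 and the lowest of Socs2.

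The pathway around the SOCS genes was read from 7 lists, from ligands to targets. Among the cytokine ligands, 6 of the 18 on the array passed the filter. Il15, a growth factor of NK and memory T cells, was under 5 on all 3 Mock arrays. With values under 5 set to 5, it was 1.66-fold higher in the AAV combination and 2.54-fold higher in AAV-IFNα livers than in Mock. The measured differences had limma adjusted p of 0.018 and 3e-04. Ifna1 was also higher than in Mock, by 1.51 in the AAV combination and by 1.06 in AAV-IFNα livers. Csf3, which drives granulocyte production, fell by 0.54 in the AAV combination (limma adjusted p = 0.025) and by 0.71 in AAV-IFNα livers. The AAV combination calls of Il15 and Csf3 were lost without some single arrays, 3 of 9 and 4 of 9. No ligand was called between the treated groups, Ifna1 included (0.46, limma adjusted p = 0.29).

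Receptors moved in both directions. Of 17 tested, 8 were higher and 2 lower in AAV-IFNα livers than in Mock (median 0.33), against 16.3% of all tested probe sets called there. In the AAV combination 1 was higher and 1 lower than in Mock, against 5.21% called, and 1 was higher and 1 lower than in AAV-IFNα, against 2.60% called. Except for Lifr, the calls of the AAV combination were lost when some single arrays were left out. Il10ra, the interleukin 10 receptor (0.86 against Mock), lost its call without 7 of 9 single arrays, Lepr (-1.30 against Mock) without 4, and Il2rb, shared by the interleukin 2 and 15 receptors (-0.81 against AAV-IFNα), without 3. The 2 that fell after AAV-IFNα were Lepr, the leptin receptor, and Lifr, the receptor of leukaemia inhibitory factor (-1.13, limma adjusted p = 0.0016). Lepr was above 5 on only 1 of 3 AAV-IFNα arrays. With values under 5 set to 5 it was 2.90-fold lower, and the measured difference had a limma adjusted p of 0.00069. Lifr was higher in the AAV combination than in AAV-IFNα by 1.24 (limma adjusted p = 0.0053) and held without any single array. Its means, 10.5 ± 0.22 in the AAV combination, 9.31 ± 0.34 in the AAV-IFNα group and 10.4 ± 0.30 in Mock, put it beside Socs2 as a gene lowest in AAV-IFNα livers. The growth hormone receptor gene Ghr, which stands upstream of Socs2, differed by 0.03 in the AAV combination against Mock, by -0.17 in AAV-IFNα against Mock and by 0.20 between the treated groups, with limma adjusted p of 0.94, 0.51 and 0.75.

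The JAK kinases and STAT factors were called in 1 direction. In AAV-IFNα livers 5 of 9 tested were higher than in Mock and none lower (median 0.46), against 11.2% of all tested probe sets called higher, and 4 were higher without the filter. Jak2 differed by 1.03, Stat2 by 1.02, Irf9 by 0.95 and Stat3 by 0.66 (limma adjusted p = 0.0036, 0.00053, 0.00031 and 0.0041). Stat2 and Irf9 form the factor that type I interferon activates. Irf9 (0.98, limma adjusted p = 0.00061) and Stat2 (0.77, limma adjusted p = 0.012) were higher in the AAV combination than in Mock, the call of Stat2 being lost without AAV combination replicate 2 (0.63, limma adjusted p = 0.058). None was called between the treated groups, where Irf9 differed by 0.03 and Jak2 by -0.56 (limma adjusted p = 0.23, and 0.0047 without AAV-IFNα replicate 3). Stat5a and Stat5b, the factors upstream of Cish and Socs2, stayed within -0.19 and 0.08 in all comparisons.

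The other inhibitors of the pathway had several profiles. Usp18, which displaces JAK1 from the interferon receptor, was higher than in Mock by 2.51 in the AAV combination (limma adjusted p = 6.1e-07) and by 2.72 in AAV-IFNα livers (limma adjusted p = 1.4e-07), and the treated groups differed by -0.21 (limma adjusted p = 0.72). The phosphatase gene Ptprc, which encodes the leukocyte marker CD45, was higher by 0.96 in the AAV combination and by 2.16 in AAV-IFNα livers, and lower in the AAV combination than in AAV-IFNα by a difference of -1.20 (limma adjusted p = 0.0043). Its call in the AAV combination against Mock was lost without AAV combination replicate 3 (0.80, limma adjusted p = 0.054). Ptpn1 and Ptpn6, phosphatases of JAK kinases and of receptors, rose by 1.26 and 1.51 in AAV-IFNα livers and were lower in the AAV combination than in AAV-IFNα (-0.80 and -1.02, limma adjusted p = 0.023 and 0.026), calls that 4 of 9 single arrays each removed. Of 12 tested inhibitors, 2 were higher in the AAV combination than in Mock (5.21% of all probe sets were called in either direction), 5 were higher in AAV-IFNα than in Mock (11.2% called higher), and 3 were lower in the AAV combination than in AAV-IFNα (2.20% called lower). None of the 8 partners of the SOCS box, such as Cul5, Eloc and Rbx1, was called in any comparison, with differences between -0.19 and 0.34.

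**Figure D4:**
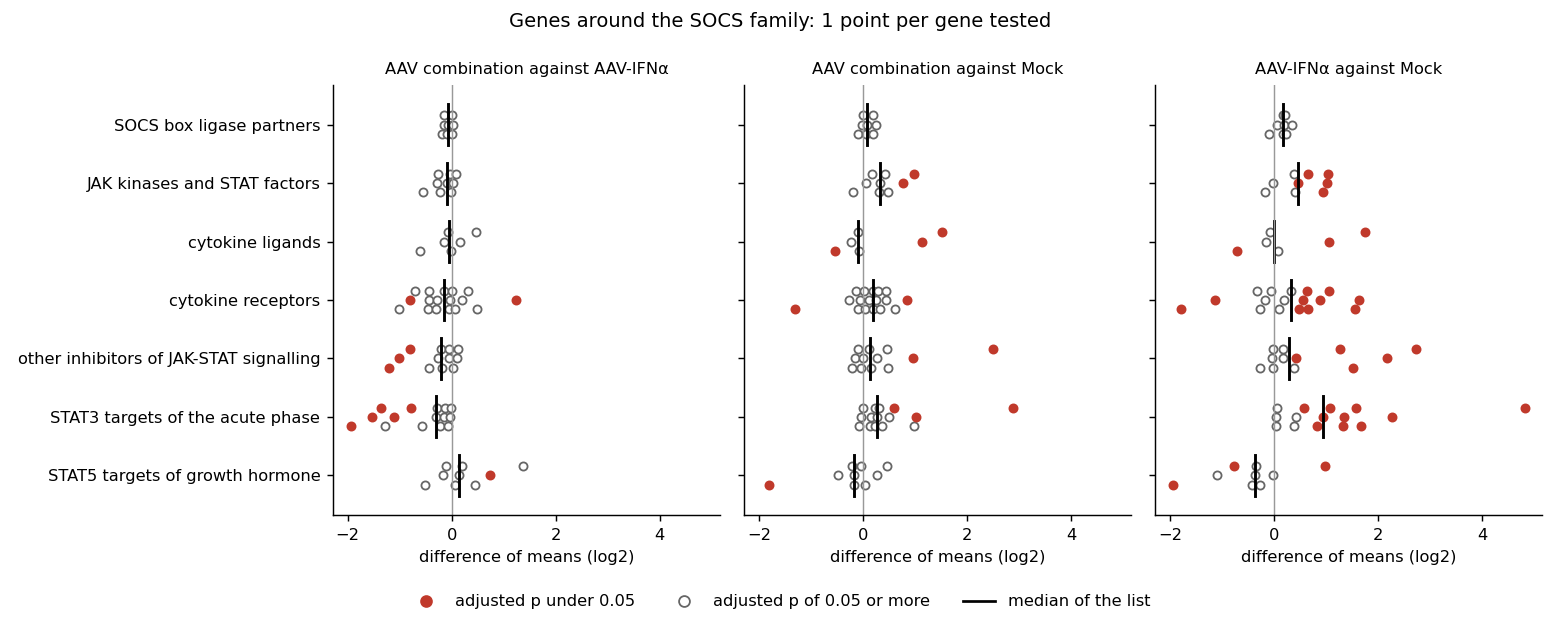
Difference in log2 level of each gene of 7 pathway lists in the 3 comparisons, 1 point per tested gene, with the list median as a black bar. The acute phase targets of STAT3 have medians of 0.94 in AAV-IFNα against Mock, 0.26 in the AAV combination against Mock and -0.30 in the AAV combination against AAV-IFNα.

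Acute phase targets of STAT3 rose after AAV-IFNα in 10 of 15 tested genes (median 0.94), against 11.2% of all tested probe sets called higher, while Socs3, itself a STAT3 target, was not called. Lcn2, an iron-binding acute phase protein gene, averaged 9.68 ± 0.39 in the AAV combination, 11.6 ± 0.26 in the AAV-IFNα group and 6.79 ± 0.69 in Mock (SD, n = 3 each). It was lower in the AAV combination than in AAV-IFNα by a difference of -1.93 (limma adjusted p = 0.0039), 1 of 5 such genes in this list, where 2.20% of all probe sets were called lower. The calls of Il1rn, Saa2 and Saa3 in that comparison (-0.78, -1.54 and -1.36) were each lost without 2 to 4 of the 9 arrays. In the AAV combination against Mock, where 5.21% of all probe sets were called, 3 were higher (median 0.26), Lcn2, Lbp and Hp (2.89, 1.02 and 0.60), of which Hp was lost without AAV combination replicate 1 or 3 (limma adjusted p between 0.052 and 0.076).

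The growth hormone and STAT5 list showed 2 genes lower and 1 higher of 9 in AAV-IFNα livers against Mock (median -0.36), where 5.06% of all tested probe sets were called lower and 11.2% higher. Igfals, the hepatocyte subunit that carries IGF1 in blood, fell by 0.76 (limma adjusted p = 0.0066) and, like Socs2, was higher in the AAV combination than in AAV-IFNα (0.73, limma adjusted p = 0.032), a call lost without 5 of 9 single arrays. Cux2, a transcription factor of female mouse liver, was lower than in Mock in both treated groups, with differences of -1.81 in the AAV combination and -1.95 in AAV-IFNα (limma adjusted p = 1.3e-05 and 2.8e-06), and the treated groups differed by 0.14 (limma adjusted p = 0.85). Pim1, a kinase gene that several STAT factors induce, rose by 0.98 in AAV-IFNα livers (limma adjusted p = 0.0013).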

How the data were processed

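Liver RNA of 9 mice (100 ng per array) was hybridised to Affymetrix arrays, named Clariom S in the methods and Mouse Gene 1.0 ST in the series' design text. The deposited values are log2 levels per probe set that the authors made with RMA, which corrects background, normalizes between arrays and summarises probes, so that levels are relative to the other arrays. The version of RMA is not given in the sources used here. Scanner intensities were not used here, and 0 columns of other samples were present. Groups came from the sample titles. Of 22142 probe sets, 19527 carry 1 platform symbol and 2615 none.

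One linear model per probe set was fitted over the 9 arrays with limma 3.58.1 in R 4.3.3 (lmFit, contrasts, eBayes; 6 residual and 6.91 prior degrees of freedom) on the 14715 probe sets with log2 levels above 5 on 2 or more arrays of a single condition. The methods name such a filter without giving its scale, the log2 scale was chosen here, and a fit without it on all 22142 was an alternative. P-values were Benjamini-Hochberg adjusted over all probe sets tested, with calls under 0.05, and the B-statistic above 0 of the methods was counted beside them. Both rest on the spread between mice within groups, pooled over the 3 groups and moderated across probe sets. The number of arrays limits the precision. The members, lists and tests were chosen with earlier results of these data known. Named were the 8 members, up to 4 called genes per list and comparison with the smallest p, Stat3, Stat5a, Stat5b, Ghr and Usp18, and the 4 closest profiles of each called member. For named genes called with a group mostly under 5, the fold was taken with values under 5 set to 5, a choice made after seeing the data. Genes without a probe set of 1 symbol were not analysed here, and 1 further gene list is not reported here. The 10 alternatives and the omission of each array were run, and the fit was tested on simulated data. Plots used matplotlib 3.10.9 (Python 3.11.15), and promoters came from RefSeq.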

Additional observations from a re-analysis of the deposited data

How the results depend on the processing

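The calls of Socs1 in both comparisons with AAV-IFNα, and of Socs2 in AAV-IFNα against Mock, held under the 10 alternatives and without each of the 9 arrays. The number of members called was 2 in AAV-IFNα against Mock and 0 in the AAV combination against Mock throughout. In the AAV combination against AAV-IFNα it was 1 with a trended and robust prior (Socs2, limma adjusted p = 0.12), 1 with a B-statistic above 0, and 1 to 2 when single arrays were left out. Socs5 was not tested with the filter at 6. The signs of small, uncalled differences turned. Under another quantile normalization, Ghr (-0.089), Lifr (-0.025) and Stat5a (-0.014) changed sign in the AAV combination against Mock, and Socs3 (0.022) and Stat5b (0.0034) in the AAV combination against AAV-IFNα. With arrays centred on their median, Igfals became 0.0045 in the AAV combination against Mock, and Socs3 became 0.011 and Stat5b 0.0084 in the AAV combination against AAV-IFNα. With array weights, Stat5a became -0.0071 in the AAV combination against Mock, and Socs3 0.063 and Irf9 -0.018 in the AAV combination against AAV-IFNα. Leaving out single arrays gave, in AAV-IFNα against Mock, -0.28 to 0.076 for Cish, -0.26 to 0.14 for Socs3, -0.21 to 0.088 for Socs7 and -0.19 to 0.18 for Stat5a. Against Mock, the AAV combination gave -0.29 to 0.13 for Socs3, -0.14 to 0.16 for Socs7, -0.11 to 0.13 for Ghr, -0.058 to 0.24 for Lifr, -0.11 to 0.26 for Stat5a, -0.10 to 0.058 for Igfals, -0.20 to 0.47 for Saa2 and -0.015 to 0.42 for Saa3. Against AAV-IFNα, it gave -0.24 to 0.20 for Socs3, -0.15 to 0.19 for Socs4, -0.038 to 0.27 for Socs5, -0.035 to 0.14 for Socs7, -0.045 to 0.14 for Stat5a, -0.095 to 0.085 for Stat5b, -0.045 to 0.11 for Irf9 and -0.0080 to 0.28 for Cux2. The cause of these turns was not tested. The labels state no pairing of mice by replicate number, and the values cannot exclude one. Same-numbered arrays deviated together with r between -0.13 and 0.22, over 0.1 in 3 of 9 pairs. Of 18 best matches, each among 3 arrays, 8 had their own number. With the replicate number as a block, 2, 0 and 2 members were called in AAV-IFNα against Mock, the AAV combination against Mock and the AAV combination against AAV-IFNα, and Il10ra was no longer called in the AAV combination against Mock (0.86), while Steap4 became called in the AAV combination against AAV-IFNα (-0.57) and stood at the threshold against Mock (0.51, adjusted p = 0.05 after rounding). Another quantile normalization lowered the share of higher calls in AAV-IFNα against Mock to 54.5%, against 69% as deposited. Probe sets under 5, such as that of Socs6, limit what can be read at low levels.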
